A study of Monodelphis domestica with 2 samples.

Results

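Oligodendrocytes of opossum primary visual cortex (V1) were described from nuclei that the deposited metadata assign to the subclass OD. This assignment held 4047 nuclei of 32764 with a subclass label and of 8267 labelled non-neuronal nuclei, with 2280 from animal 1 and 1767 from animal 2. The other non-neuronal subclasses were astrocytes (Astro, 2089 nuclei), oligodendrocyte precursor cells (OPC, 1343), microglia (Micro, 723) and endothelial cells (Endo, 65), and the precursors are the nearest stage of the same lineage.

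Oligodendrocytes wrap axons in myelin, a compacted stack of their own plasma membrane that speeds conduction, and they keep the myelin supplied with lipid and protein for the life of the animal. They arise from precursors that divide, carry the receptor PDGFRA and the proteoglycan NG2, leave the cell cycle and pass through a premyelinating stage before they switch on myelin genes. The mature cell also feeds axons through metabolite transporters, clears potassium through channels and gap junctions, and carries proteins that inhibit axon growth.

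Single-nucleus RNA sequencing was done on V1 of 2 adult male gray short-tailed opossums (Monodelphis domestica, a marsupial) without any treatment or genetic change, aged 1.5 years (animal 1) and 2 years (animal 2). Each animal gave 1 suspension of nuclei, sorted for intact DNA-stained nuclei and split over 2 libraries (A and B), so the animal is the replicate (n = 2) and libraries of an animal are technical. White matter was cut away during dissection. The sample protocol states that the replicates were handled in parallel by 2 experimenters, and animal, age and handling cannot be told apart.

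The 4 libraries held 55625042 to 69706055 unique molecular identifiers (UMIs, 1 per captured transcript), and oligodendrocyte nuclei contributed 4887460 UMIs in animal 1 and 3820252 in animal 2. Levels below are in CPM, the counts of a gene in the summed nuclei of a subclass scaled to 1e6 UMIs, with animal 1 given before animal 2. Intronic reads were counted and longer genes give more of them, so levels are compared between nuclei and not between genes. Pairs of libraries shared 16 to 30 barcodes, of which at most 1 per pair was an oligodendrocyte in both. The doublet caller Scrublet marked 4.93% of all barcodes and 12 oligodendrocyte nuclei (0.297%).

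The label was checked first against MOG and MAG, glycoproteins of the myelin surface. MOG stood at 1308 and 1282 CPM in oligodendrocytes and at 82.5 and 60.3 CPM in precursors, 38.2 and 21.5 CPM in astrocytes and 24.5 and 33.5 CPM in microglia. MAG, which lies on the axon-facing membrane, was at 438 and 365 CPM against 10.4 and 11.8 CPM in precursors and 13.1 and 10.1 CPM in astrocytes. Both were above every other non-neuronal subclass in both animals. The third marker of the list, MOBP, carries no gene symbol in the files and was not analysed here.

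Counted nucleus by nucleus after thinning each nucleus to 1000 UMIs, a UMI of MOG or MAG was found in 79.6% and 76.2% of oligodendrocytes (mean 77.9% ± 2.39 SD, n = 2). Without thinning the shares were 93.6% and 92.4%. For MOG alone the thinned shares (exact 95% binomial interval, counting error only) were 71.2% (69.3 to 73.1%) and 68.3% (66.0 to 70.4%) in oligodendrocytes, at median depths of 1924 and 1909 UMIs. Glutamatergic neurons, which should lack MOG, showed it in 0.684% and 0.859% of nuclei at median depths of 8125 and 8057 UMIs. Precursors showed it in 7.24% (5.51 to 9.29%) and 4.04% (2.58 to 6.0%), above astrocytes at 1.73% (1.09 to 2.60%) and 1.35% (0.675 to 2.40%), and these intervals did not overlap in either animal.

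Markers of other cell types were low in oligodendrocyte nuclei. The 5 astrocyte markers summed to 107 and 154 CPM, against 19691 and 18748 CPM in astrocytes. The 5 microglial markers summed to 4.09 and 5.50 CPM with P2RY12, a purinergic receptor of resting microglia, at 0, and the 3 endothelial markers with a symbol summed to 15.1 and 27.7 CPM. The 3 precursor markers summed to 24.6 and 32.7 CPM, against 3712 and 3897 CPM in precursors, with CSPG4 at 0. The 5 neuronal markers summed to 327 and 455 CPM, higher in both libraries of animal 2 (484 and 428 CPM) than in those of animal 1 (332 and 322 CPM).

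Oligodendrocytes were the most abundant non-neuronal subclass in both animals. They made up 48.6% (exact 95% interval 47.2 to 50.1%) of non-neuronal nuclei in animal 1 and 49.4% (47.7 to 51.0%) in animal 2, a mean of 49.0% ± 0.521 (SD, n = 2). The library shares were 48.8 and 48.4% in animal 1 and 50.2 and 48.7% in animal 2, and the difference between libraries of an animal did not pass (two-sided Fisher exact p = 0.793 and 0.381). For each precursor nucleus there were 2.95 and 3.11 oligodendrocyte nuclei (mean 3.03 ± 0.113 SD, n = 2). The share among all labelled nuclei moved more, at 14.2 and 10.6%. Shares are of recovered nuclei after dissection and sorting, and these steps can set them.

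Oligodendrocyte nuclei held little RNA. Their median was 1924 and 1909 UMIs per nucleus, below precursors (2551 and 2619) and astrocytes (2522 and 2781) and above microglia (1430 and 1483) and endothelial nuclei (1415 and 1402.5). By library the oligodendrocyte medians were 1932 and 1914 UMIs in animal 1 and 2115 and 1766 in animal 2. Oligodendrocyte nuclei also used fewer genes at equal depth, with a median of 629 and 636 genes per nucleus at 1000 UMIs against 691 and 684 in precursors. Their 50 most abundant genes took 30.4 and 29.5% of all UMIs, against 24.0 and 24.9% in precursors.

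Whether the deposited label could be recovered from the other animal was then asked, since a label built on both animals together need not hold in each. Nuclei of each animal were given the label of the nearest nuclei of the other. Among oligodendrocytes, 99.6% of animal 1 and 99.0% of animal 2 were called oligodendrocytes again. With labels predicted from the other part of a random split of the genes, 99.3% kept the label for each part. Both checks learned from the deposited labels, which were made with all genes and both animals. They therefore do not test the classes independently.

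Which genes separate the myelinating cell from its precursor was tested with edgeR on counts summed per animal and subclass, 10 sums in all. Of 13483 genes tested, 5899 (43.8%) differed at an adjusted p below 0.05, with 2535 (18.8%) higher in oligodendrocytes and 3364 (24.9%) lower. The median difference over all genes was 0.00 on the log2 scale. Subclasses were named from the same expression values, so p-values here measure how well 2 animals agree and not whether the classes exist. With labels predicted from genes left out of each test, 5920 of 13498 genes were called. The prediction learned from the deposited labels, which rest on all genes, so it does not lift this limit. In what follows the levels of a gene in oligodendrocytes come before those in precursors, a log2 fold change is given with its standard error (SE), and a gene said to be higher or lower, or given with a fold and no p, passed at an adjusted p below 0.05. Because so many genes differed, a gene list is read below against these background shares.

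The genes furthest above precursors were named by size of fold, 10 with a symbol. SLC5A11, a sodium-coupled inositol transporter, stood at 792 and 816 CPM in oligodendrocytes against 9.48 and 9.95 CPM in precursors (log2 fold change 6.45 ± 0.25, edgeR adjusted p = 1.44e-14). ST18, a zinc finger transcription factor, was at 2361 and 2592 against 24.7 and 47.3 CPM (log2 fold change 6.23 ± 0.27). The very-long-chain fatty acid elongase ELOVL7 stood at 387 and 378 against 6.64 and 3.73 CPM (log2 fold change 6.23 ± 0.24). MBP, the cytoplasmic protein that compacts myelin, was at 10759 and 10970.2 against 166 and 203 CPM (log2 fold change 5.97 ± 0.30).

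The other 6 were GALNT5, SLC9A3, ARMC3, CDH3, HSPG2 and NUAK2. GALNT5 starts mucin-type O-glycosylation and stood at 205 and 211 CPM in oligodendrocytes against 2.37 and 3.73 CPM in precursors (log2 fold change 6.19 ± 0.38, edgeR adjusted p = 1.54e-11). SLC9A3, a sodium-proton exchanger, was at 485 and 509 against 7.11 and 7.47 CPM (log2 fold change 6.17 ± 0.26). CDH3, the adhesion molecule P-cadherin, stood at 143 and 125 against 3.32 and 0.622 CPM (log2 fold change 6.02 ± 0.34, and 7.16 without animal 1 or 5.42 without animal 2). These were absent or nearly so from precursors. The armadillo repeat gene ARMC3 was at 56.1 and 87.7 against 0.948 and 1.24 CPM (log2 fold change 6.06 ± 0.43). HSPG2, which encodes the basement membrane proteoglycan perlecan, stood at 72.4 and 64.9 against 0.474 and 1.87 CPM (log2 fold change 6.0 ± 0.40, and 4.99 without animal 1 or 6.75 without animal 2). The kinase NUAK2 was at 40.9 and 48.2 against 0 and 1.24 CPM (pooled ratio of oligodendrocytes to precursors 82.0, 95% counting interval 22.5 to 679).

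The 10 largest decreases were led by genes that define the precursor. PDGFRA, the receptor for the mitogen PDGF-A, stood at 2.05 and 2.09 CPM in oligodendrocytes against 984 and 985 CPM in precursors (log2 fold change -8.77 ± 0.33, edgeR adjusted p = 1.26e-14). CSPG4, which encodes NG2, was not counted in any oligodendrocyte nucleus and was at 28.9 and 29.9 CPM in precursors (at least 85.1-fold lower, edgeR adjusted p = 8.12e-09, with the bound at 3 counts over both animals). SCUBE3 and ECEL1 were likewise at 0, at least 81.2-fold and 78.9-fold lower. ECEL1 passed in edgeR (adjusted p = 1.93e-08) but not in DESeq2. MYT1, a zinc finger factor of the progenitor stage, stood at 4.91 and 17.0 against 2325 and 2218 CPM (log2 fold change -7.67 ± 0.35, and -6.92 without animal 1 or -8.78 without animal 2). In animal 2 the 28 nuclei of the type OD_5 gave 52.3% of the MYT1 counts of oligodendrocytes, and OD_1 to OD_4 together were at 3.99 and 8.36 CPM. The remaining 5 were FGD5, TRAPPC3L, COL9A1, PXDC1 and NKAIN3, each at or below 2.05 CPM in oligodendrocytes and between 130.4 and 408 CPM in precursors. For COL9A1 the log2 fold change was -7.66, -6.55 without animal 1 and -9.00 without animal 2.

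Myelin protein genes came first among the gene lists. Of 20 listed genes 15 carry a symbol and 14 were tested, and 12 were higher in oligodendrocytes and 2 were lower, so that every tested gene passed (median log2 fold change 3.18 with a gene at 0 set to its bound). Over all genes 18.8% were higher and 24.9% lower. CLDN11, the claudin of myelin tight junctions, stood at 942 and 799 CPM in oligodendrocytes against 32.7 and 25.5 CPM in precursors (log2 fold change 4.97 ± 0.24, edgeR adjusted p = 1.81e-13). CNP, the enzyme that keeps cytoplasmic channels in myelin open, was at 190.1 and 157 against 21.8 and 23.0 CPM (log2 fold change 3.04 ± 0.20). Both were far apart between the subclasses in both animals. MOG (log2 fold change 4.25 ± 0.22 SE) and MAG (5.26 ± 0.24 SE) were also higher.

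Some members of that list were already present in precursors or went the other way. GPM6B, a tetraspan membrane proteolipid, stood at 2931 and 2945 CPM in oligodendrocytes against 1737 and 1726 CPM in precursors (log2 fold change 0.85 ± 0.16, edgeR adjusted p = 0.000153). JAM3, an adhesion molecule of the myelin junction, was at 601 and 567 against 91.5 and 57.2 CPM (log2 fold change 3.04 ± 0.24), and PLLP, the tetraspan protein plasmolipin, at 386 and 371 against 67.3 and 77.8 CPM (log2 fold change 2.48 ± 0.16). The peripheral myelin gene PMP22 was lower, at 1.64 and 4.19 against 33.2 and 24.3 CPM (log2 fold change -3.27 ± 0.37, and -2.42 without animal 1 or -4.18 without animal 2). TSPAN2, a tetraspanin, was lower too, at 2.46 and 5.50 against 17.1 and 17.4 CPM (log2 fold change -2.06 ± 0.37, and -1.56 without animal 1 or -2.68 without animal 2). MAL, a proteolipid of myelin lipid rafts, was counted only in animal 2, at 0 and 18.3 CPM, and was at 0 in precursors. Its call (edgeR adjusted p = 0.0138) rests on animal 2.

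**Figure D1:**
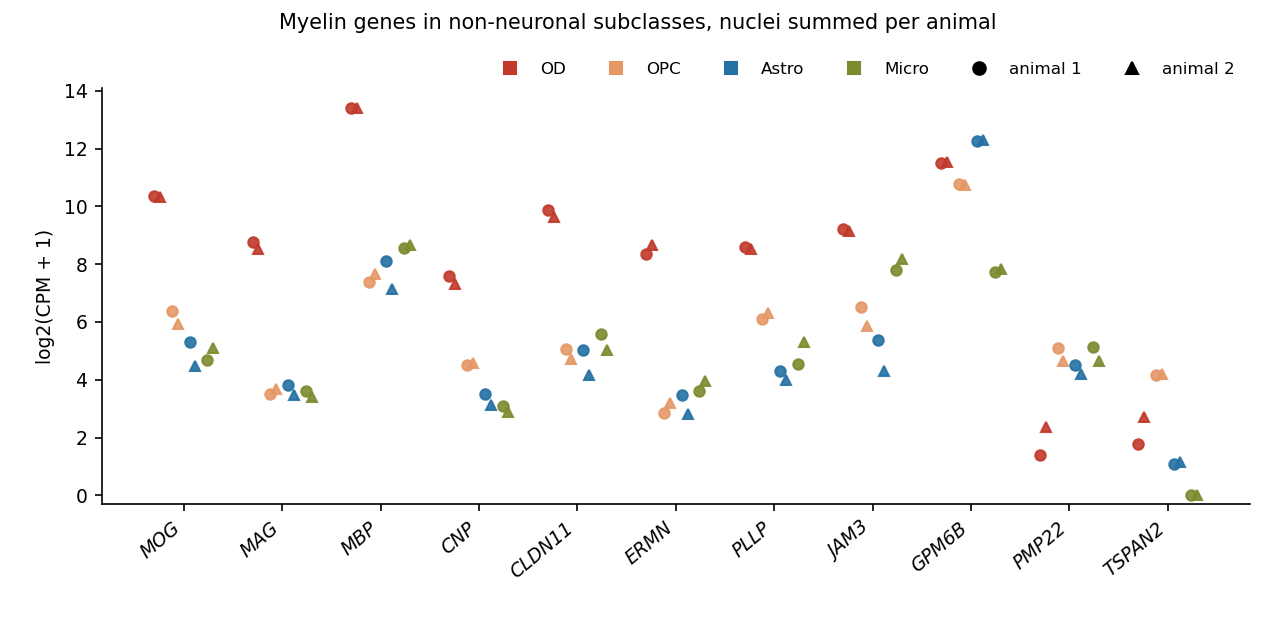
Levels of 11 myelin genes in oligodendrocytes (OD), precursors (OPC), astrocytes and microglia, as log2(CPM + 1), with circles for animal 1 and triangles for animal 2. MOG, MAG, MBP and ERMN sit highest in oligodendrocytes, while PMP22 and TSPAN2 lie below the precursor level, and the points of both animals lie close together for MBP (10759 and 10970.2 CPM).

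Among transcription factors of the lineage, 18 of 24 were tested, and 5 were higher in oligodendrocytes, 9 were lower and 4 did not pass (median -0.95). The share higher was 27.8%, where 18.8% of all genes were higher and 24.9% lower. The higher factors were ST18, ZNF536, ZEB2, YY1 and TCF7L2. ZNF536 stood at 877 and 895 CPM in oligodendrocytes against 190.1 and 134 CPM in precursors (log2 fold change 2.53 ± 0.16, edgeR adjusted p = 1.65e-11). ZEB2, which represses inhibitors of differentiation, was at 594 and 598 against 212 and 198 CPM (log2 fold change 1.62 ± 0.14). TCF7L2, a Wnt effector that marks cells entering myelination, was only slightly higher, at 637 and 583 against 507 and 450.4 CPM (log2 fold change 0.43 ± 0.17), and lost its call under 5 alternative settings. The 62 nuclei of the type OD_5, described with the other types, held it at 5400.0 and 4754 CPM, while OD_1 to OD_4 together were at 505 and 456 CPM.

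The SOXD factors, which hold precursors undifferentiated, were among the factors that were lower. SOX5 stood at 59.5 and 75.1 CPM in oligodendrocytes against 1526 and 1547 CPM in precursors (log2 fold change -4.43 ± 0.17, edgeR adjusted p = 1.26e-14). SOX6 was at 86.8 and 103 against 1801 and 1617 CPM (log2 fold change -4.09 ± 0.17). Of its counts in oligodendrocytes 79.5% and 87.5% came from OD_5, at 2570.3 and 3046 CPM, and OD_1 to OD_4 together were at 18.3 and 13.2 CPM. NKX2-2, a homeobox factor of the lineage, was lower by less, at 40.5 and 46.1 against 79.6 and 80.9 CPM (log2 fold change -0.81 ± 0.18), and the group E factor SOX8 did not pass (109 and 83.2 against 119 and 111 CPM, edgeR adjusted p = 0.472). OLIG1, SOX10 and MYRF carry no symbol in the files, and OLIG2 was too low to test.

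Precursor genes were lower almost throughout. Of 14 precursor genes tested, 13 were lower in oligodendrocytes and none was higher (median -4.60, against 24.9% of all genes lower). The exception was SEMA5A, a semaphorin, at 647 and 689 CPM against 723 and 758 CPM (edgeR adjusted p = 0.818). PTPRZ1, a receptor phosphatase, stood at 22.5 and 30.6 CPM in oligodendrocytes against 2699 and 2881 CPM in precursors (log2 fold change -6.64 ± 0.24, edgeR adjusted p = 6.98e-15). BCAN, the matrix proteoglycan brevican, was at 14.7 and 17.8 against 730.0 and 818 CPM (log2 fold change -5.49 ± 0.22), and CSPG5, neuroglycan C, at 10.8 and 11 against 366 and 429 CPM (log2 fold change -5.09 ± 0.18). The matrix protein tenascin-R (TNR) stood at 47.9 and 66.7 against 1263 and 1161 CPM (log2 fold change -4.32 ± 0.18). OD_5 held 82.1% and 79.2% of the TNR counts and 58.3% and 57.4% of the BCAN counts of oligodendrocytes, and OD_1 to OD_4 together were at 8.83 and 14.3 CPM for TNR and 6.31 and 7.82 CPM for BCAN. Of 14 cell cycle genes listed 9 carry a symbol, and 5 of these were too low to test. All 4 tested were lower, as 24.9% of all genes were. A gene near 0 in oligodendrocytes passes the filter on low counts only through another subclass, which favours a lower call. TOP2A, the topoisomerase of dividing cells, was at 0 in oligodendrocytes and 19.4 and 16.2 CPM in precursors (at least 52.3-fold lower, edgeR adjusted p = 7.35e-08). Its counts in precursors lay mostly in OPC_2, the smaller precursor type, at 594 and 523 CPM, with OPC_1 at 3.90 and 0.641 CPM. ASPM, a spindle protein, was at 16.8 and 13.9 CPM in oligodendrocytes against 42.7 and 36.7 CPM in precursors, but at 11.2 and 6.41 CPM in OPC_1.

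Myelin is rich in cholesterol and in galactolipids built on very long fatty acids, and enzymes of both pathways were compared. Of 17 sphingolipid and fatty acid genes tested, 12 were higher in oligodendrocytes, 1 was lower and 4 did not pass (median 1.46). Over all genes 18.8% were higher and 24.9% lower. With the animal as a block ASAH1 also passed (log2 fold change 0.39, edgeR adjusted p = 0.0438). UGT8, which makes galactosylceramide, stood at 1466 and 1709 CPM in oligodendrocytes against 112 and 117 CPM in precursors (log2 fold change 3.88 ± 0.18, edgeR adjusted p = 7.37e-14). CERS2, the ceramide synthase for very long chains, was at 95.8 and 87.2 against 16.6 and 16.8 CPM (log2 fold change 2.54 ± 0.22). SPTLC2, a subunit of the enzyme that starts the pathway, stood at 300.2 and 304 against 55.9 and 68.4 CPM (log2 fold change 2.38 ± 0.17). The fatty acid synthase FASN was at 125 and 115 against 40.3 and 36.7 CPM (log2 fold change 1.72 ± 0.17) and the desaturase SCD at 92.3 and 71.5 against 22.3 and 22.4 CPM (log2 fold change 1.96 ± 0.22). ACACA, which feeds FASN, did not pass (131 and 109.9 against 128 and 124 CPM, edgeR adjusted p = 0.922). ACSBG1, an acyl-CoA synthetase, was the only one lower, at 3.68 and 6.28 against 38.4 and 47.9 CPM (log2 fold change -3.04 ± 0.26).

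In cholesterol synthesis 7 were higher in oligodendrocytes, 0 were lower and 8 did not pass of 15 tested (median 0.79). The share higher was 46.7%, where 18.8% of all genes were higher and 24.9% lower. The squalene epoxidase SQLE stood at 54.6 and 59.9 CPM in oligodendrocytes against 14.2 and 11.8 CPM in precursors (log2 fold change 2.20 ± 0.24, edgeR adjusted p = 6.26e-08), and FDFT1, which makes squalene, at 59.3 and 63.6 against 20.9 and 21.8 CPM (log2 fold change 1.61 ± 0.25). HMGCS1, an early enzyme of the pathway, did not pass (27.4 and 20.4 against 19.9 and 23.6 CPM, edgeR adjusted p = 0.526). INSIG1, a sterol sensor that restrains the pathway, was at 63.2 and 67.8 against 4.74 and 6.84 CPM (log2 fold change 3.60 ± 0.26). PEX5L, counted with the fatty acid list and related to the peroxisomal import receptor, stood at 8859 and 8716 against 121 and 186 CPM (log2 fold change 5.94 ± 0.27).

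Genes of axon contact went in both directions. Of 23 tested, 6 were higher in oligodendrocytes, 11 were lower and 6 did not pass (median -0.21). The share higher was 26.1%, where 18.8% of all genes were higher and 24.9% lower. NFASC, whose glial form anchors the paranodal loops, stood at 1649 and 1622 CPM in oligodendrocytes against 273 and 219.6 CPM in precursors (log2 fold change 2.81 ± 0.16, edgeR adjusted p = 3.89e-12). CNTN2, the contactin of the juxtaparanode, was at 252 and 242 against 5.21 and 10.6 CPM (log2 fold change 5.10 ± 0.26). Both proteins sit beside the node of Ranvier. CDH19, a cadherin, stood at 278 and 308 against 8.06 and 6.84 CPM (log2 fold change 5.36 ± 0.21). Lower members included the neuronal contactin CNTN1, at 89.8 and 119 against 1341 and 1616 CPM (log2 fold change -3.74 ± 0.17), the adhesion molecule CADM1, at 54.2 and 57.3 against 386 and 342 CPM (log2 fold change -2.62 ± 0.16), and ITGB4, a laminin receptor subunit at 0 in oligodendrocytes (at least 60.1-fold lower, edgeR adjusted p = 4.61e-07).

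Among inhibitors of axon growth and guidance genes, 7 were higher in oligodendrocytes, 7 were lower and 4 did not pass of 18 tested (median 0.06). The share was 38.9% in each direction, where 18.8% of all genes were higher and 24.9% lower. RTN4, which encodes the neurite growth inhibitor Nogo, stood at 1183 and 1218 CPM in oligodendrocytes against 239 and 236 CPM in precursors (log2 fold change 2.42 ± 0.15, edgeR adjusted p = 1.03e-11). The netrin receptor UNC5C was at 2643 and 2494 against 733 and 626 CPM (log2 fold change 2.00 ± 0.18), while DCC, another netrin receptor, stood at 20.3 and 23.6 against 682 and 687 CPM (log2 fold change -4.88 ± 0.19). These 2 receptors thus lay on opposite sides. SEMA3C was at 163 and 141 against 20.9 and 24.3 CPM (log2 fold change 2.85 ± 0.20) and ROBO1, a receptor for SLIT ligands, at 34 and 43.7 against 279.7 and 269 CPM (log2 fold change -2.74 ± 0.18). LINGO1, a partner of the Nogo receptor, was lower, at 3.68 and 5.50 against 11.9 and 21.8 CPM (log2 fold change -1.76 ± 0.44).

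Of 27 junction, channel and transporter genes tested, 13 were higher in oligodendrocytes, 9 were lower and 5 did not pass (median 0.73). The share higher was 48.1%, where 18.8% of all genes were higher and 24.9% lower. GJB1, a connexin of oligodendrocyte gap junctions, was higher, at 21.1 and 24.1 CPM in oligodendrocytes against 3.79 and 1.24 CPM in precursors (log2 fold change 3.13 ± 0.42, edgeR adjusted p = 2.12e-06, and 4.05 without animal 1 or 2.48 without animal 2). The choline transporter SLC44A1 stood at 3147 and 3169 against 272 and 283 CPM (log2 fold change 3.60 ± 0.18) and the inward rectifier KCNJ10 at 43.0 and 35.9 against 19 and 17.4 CPM (log2 fold change 1.2 ± 0.24). TMEM63A, a mechanically gated channel, was at 69.8 and 106 against 1.42 and 3.73 CPM (log2 fold change 5.22 ± 0.36). The sodium channel SCN1A was lower, at 40.7 and 54.7 against 359 and 344 CPM (log2 fold change -2.80 ± 0.16). The lactate transporter SLC16A1 was low in both and did not pass (5.32 and 3.40 against 10.4 and 7.47 CPM, edgeR adjusted p = 0.0813).

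Of 26 receptor and signalling genes, 7 were higher in oligodendrocytes, 12 were lower and 7 did not pass (median -0.44). The share higher was 26.9%, where 18.8% of all genes were higher and 24.9% lower. The fibroblast growth factor receptors lay on opposite sides: FGFR2 stood at 773 and 755 CPM in oligodendrocytes against 220.0 and 196 CPM in precursors (log2 fold change 1.96 ± 0.17, edgeR adjusted p = 2.32e-09), FGFR1 at 4.50 and 4.19 against 94.3 and 74.0 CPM (log2 fold change -4.17 ± 0.23). The lysophosphatidic acid receptor LPAR1 was at 507 and 581 against 8.06 and 16.8 CPM (log2 fold change 5.59 ± 0.22), and the orphan receptor GPR37, a brake on maturation, at 182 and 159.7 against 2.84 and 3.73 CPM (log2 fold change 5.78 ± 0.26). NOTCH1 was close to 0, at 0.614 and 1.05 against 76.3 and 84.0 CPM (log2 fold change -6.44 ± 0.30), while its ligand DLL1 was higher, at 126 and 101 against 56.4 and 44.2 CPM (log2 fold change 1.25 ± 0.23). The glutamate receptor subunits GRIA4 and GRIK2 were lower, GRIA4 at 112 and 162 against 1942 and 1785 CPM (log2 fold change -3.68 ± 0.18) and GRIK2 at 215 and 296 against 1385 and 1310.1 CPM (log2 fold change -2.31 ± 0.17), while GRIN1 did not pass (34.2 and 54.4 against 27.5 and 39.8 CPM, edgeR adjusted p = 0.108, but 0.0329 with the animal as a block). With that block IGF1R also passed, so that 5 of the 26 did not.

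Cytoskeleton, traffic and RNA-binding genes were higher more often than lower. Of 25 tested, 17 were higher in oligodendrocytes, 4 were lower and 4 did not pass (median 1.99, against 18.8% of all genes higher). ERMN (ermin), which shapes the processes of myelinating cells, stood at 326 and 401 CPM in oligodendrocytes against 6.16 and 8.09 CPM in precursors (log2 fold change 5.77 ± 0.24, edgeR adjusted p = 5.57e-14). TPPP, which nucleates microtubules in myelin sheaths, was at 984 and 1024 against 66.4 and 62.2 CPM (log2 fold change 4.05 ± 0.18), and the motor KIF13B at 1429 and 1441 against 169 and 129 CPM (log2 fold change 3.35 ± 0.17). PLEKHH1 stood at 1317 and 1272 against 55.0 and 64.1 CPM (log2 fold change 4.54 ± 0.16). The actin-severing protein gelsolin (GSN) was at 224 and 219.9 against 25.1 and 17.4 CPM (log2 fold change 3.44 ± 0.18). QKI, which stabilises myelin mRNAs, was already high in precursors, at 3315 and 3414 against 2071 and 2093 CPM (log2 fold change 0.78 ± 0.15). MARCKS, an actin-linked membrane protein, was lower, at 10.6 and 9.69 against 80.6 and 97.7 CPM (log2 fold change -3.03 ± 0.21).

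In the mature state list 6 were higher in oligodendrocytes, 1 was lower and 5 did not pass of 12 tested (median 1.51), in the metabolic support list 6 were higher in oligodendrocytes, 2 were lower and 5 did not pass of 13 (median 0.87), and in the stress and immune list 1 was higher in oligodendrocytes, 1 was lower and 9 did not pass of 11 (median 0.02). Over all genes 18.8% were higher and 24.9% lower. With the animal as a block SLC40A1 of the metabolic list also passed, as lower (edgeR adjusted p = 0.0473). The chaperone CRYAB stood at 68.3 and 75.6 CPM in oligodendrocytes against 5.21 and 3.73 CPM in precursors (log2 fold change 4.05 ± 0.28, edgeR adjusted p = 9.28e-11). Glutamine synthetase (GLUL), best known from astrocytes, was at 484 and 442 against 82.5 and 72.2 CPM (log2 fold change 2.66 ± 0.16). LDHB, the lactate dehydrogenase subunit that favours pyruvate, was lower, at 6.75 and 12.8 against 34.1 and 39.8 CPM (log2 fold change -1.85 ± 0.26). In the stress list the chaperone HSPA8 was higher, at 46.0 and 35.9 against 25.6 and 26.1 CPM (log2 fold change 0.76 ± 0.21), and the early response gene FOS lower, at 0.205 and 0 against 3.32 and 4.35 CPM (pooled ratio of precursors to oligodendrocytes 32.8, 95% counting interval 4.99 to 1387).

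**Figure D2:**
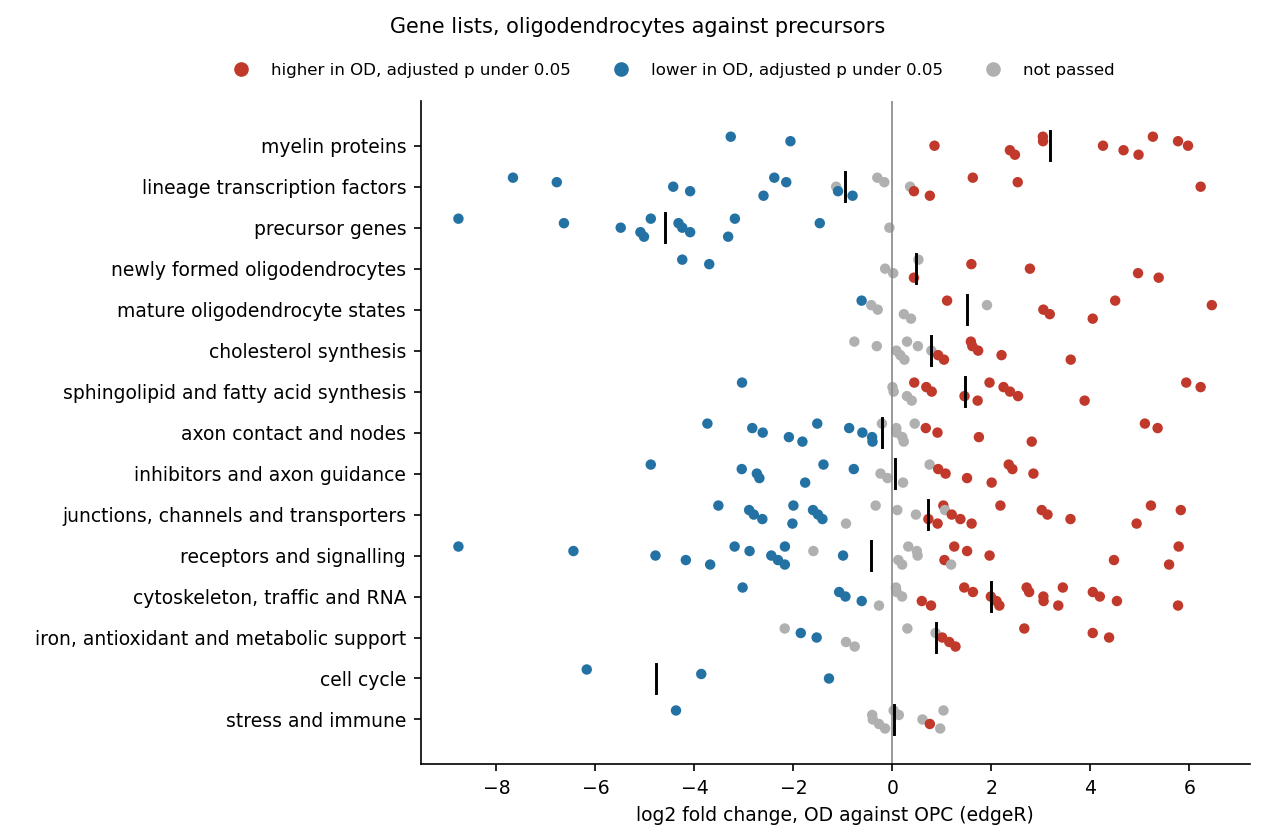
Differences between oligodendrocytes and precursors (log2 fold change, x axis) for the tested genes of each list, with 1 point per gene, colour for passing the edgeR test and a bar at the list median. Genes with 0 counts on either side are not plotted, although the median includes them at their bound, and the myelin list lies to the right (3.18) and the precursor list to the left (-4.60).

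Set against the mean of the other 4 non-neuronal subclasses, 4813 of 13483 genes (35.7%) differed, with 2970 (22.0%) higher and 1843 (13.7%) lower in oligodendrocytes. The share of called genes that were higher was 61.7% in the fit reported and moved with the settings, to 56.5% with size factors in edgeR, 45.2% with DESeq2, 48.5% with equal numbers of nuclei, 50.2% without Endo and 69.5% without the filter on low counts. The median difference over all genes was 0.19 (log2), 0.10 with size factors and -0.04 with DESeq2. The genes named as higher were at 0 in the endothelial sums, so levels are given in place of fitted folds.

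The 10 genes with the largest fitted difference all had no count in the 65 endothelial nuclei, which puts genes with a few counts there lower in the order. Of these 10, ERMN was counted at 326 and 401 CPM in oligodendrocytes, 6.16 and 8.09 CPM in precursors, 9.98 and 6.07 CPM in astrocytes, 11.3 and 14.4 CPM in microglia, 0 and 0 CPM in endothelial nuclei (edgeR adjusted p = 4.87e-16). CNTN2 was counted at 252 and 242 CPM in oligodendrocytes, 5.21 and 10.6 CPM in precursors, 9.41 and 4.45 CPM in astrocytes, 1.89 and 4.78 CPM in microglia, 0 and 0 CPM in endothelial nuclei (edgeR adjusted p = 9.94e-15). ENPP6, a choline phosphodiesterase used as a marker of newly formed oligodendrocytes, was counted at 162 and 223 CPM in oligodendrocytes, 4.74 and 8.71 CPM in precursors, 4.85 and 10.5 CPM in astrocytes, 0 and 3.19 CPM in microglia, 0 and 0 CPM in endothelial nuclei (edgeR adjusted p = 2.69e-13). These were rare in the other 4 non-neuronal subclasses. CNDP1, the dipeptidase that splits carnosine, was counted at 1063 and 1231 CPM in oligodendrocytes, 28.4 and 20.5 CPM in precursors, 25.4 and 30.8 CPM in astrocytes, 168 and 273 CPM in microglia, 0 and 0 CPM in endothelial nuclei (edgeR adjusted p = 4.75e-16), with microglia the next highest. LDB3, a PDZ-LIM protein best known from muscle, was counted at 117 and 98.9 CPM in oligodendrocytes, 3.32 and 0.622 CPM in precursors, 2.57 and 1.62 CPM in astrocytes, 0 and 1.59 CPM in microglia, 0 and 0 CPM in endothelial nuclei (edgeR adjusted p = 2.15e-13). GALNT5, CDH3, IRX1, TMIGD1 and ARMC3 completed the set, each at or below 6.56 CPM in every other subclass.

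Genes nearly missing from oligodendrocytes included NOTCH1 at 0.614 and 1.05 CPM in oligodendrocytes, 76.3 and 84.0 CPM in precursors, 163 and 158 CPM in astrocytes, 104 and 95.7 CPM in microglia, 124 and 51.8 CPM in endothelial nuclei (edgeR adjusted p = 5.74e-12). The adaptor SH3BP2 was counted at 0.614 and 0.785 CPM in oligodendrocytes, 36.5 and 39.2 CPM in precursors, 312 and 330.3 CPM in astrocytes, 611 and 660.1 CPM in microglia, 20.6 and 0 CPM in endothelial nuclei (edgeR adjusted p = 1.78e-05), so its level differed widely among the other subclasses too. NEDD9, RREB1 and TNFSF10 had 1, 1 and 0 counts over all oligodendrocyte nuclei. They were low in precursors too, at 2.37 and 4.35, 0.474 and 0.622, and 2.84 and 1.87 CPM. Against precursors RREB1 did not pass (edgeR adjusted p = 0.359). TNFSF10 lost its call with equal numbers of nuclei (edgeR). Of the gene lists, the myelin list had 10 higher and 1 lower of 14 tested against these subclasses, the cytoskeleton list 19 and 1 of 25, the receptor list 10 and 11 of 26 and the stress list 0 and 3 of 11. In this comparison 22.0% of all genes were higher and 13.7% lower. Leaving out Endo, an alternative added after seeing the data, kept the call of all 15 named genes.

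Variation among oligodendrocyte nuclei was measured as variance over mean after thinning to 1000 UMIs, where pure counting gives about 1. Over 1579 genes with a mean of at least 0.1 UMI the median was 1.09 and 1.1, and the values of the 2 animals had a Spearman correlation of 0.695 across genes (a description, since genes share nuclei and depth). The 10 genes with the most variation were FRMD4A, OPCML, MAML2, KIRREL3, UST, PLCL1, LSAMP, TMEFF2, PEX5L and CNDP1. FRMD4A, a scaffold of cell polarity, reached 5.07 and 4.73, and OPCML, an adhesion molecule, 4.66 and 5.08. Of these 10, 9 remained when thinned to 500 UMIs and 9 with doublets left out. The first 5 and LSAMP were highest in the smallest of the oligodendrocyte types described next, in both animals.

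The metadata divide the subclass into 5 types, OD_1 to OD_5. These are clusters of the same values, so what follows is a description without tests. OD_1 held 36.5 and 43.9% of oligodendrocytes, OD_2 34.2 and 25%, OD_3 17.2 and 22.9%, OD_4 10.6 and 6.68% and OD_5 1.49 and 1.58%. The exact 95% intervals of the animals were apart for OD_1 to OD_4 (for OD_1 34.6 to 38.5% and 41.6 to 46.3%) and overlapped for OD_5 (1.03 to 2.08% and 1.06 to 2.28%), counting error only. Shares also moved between libraries of 1 suspension. In animal 2, OD_1 held 311 of 790 oligodendrocytes in library A and 465 of 977 in library B. In animal 1 it held 407 of 1125 and 426 of 1155. A difference between the animals was not tested. When nuclei received the type of the nearest nuclei of the other animal, OD_5 was recovered in 94.1 and 96.4%, OD_1 in 81.4 and 82.7%, OD_2 in 80.0 and 91.2%, OD_4 in 66.0 and 87.3% and OD_3 in 69.0 and 57.2%. Nuclei of OD_3 that moved went mostly to OD_2.

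**Figure D3:**
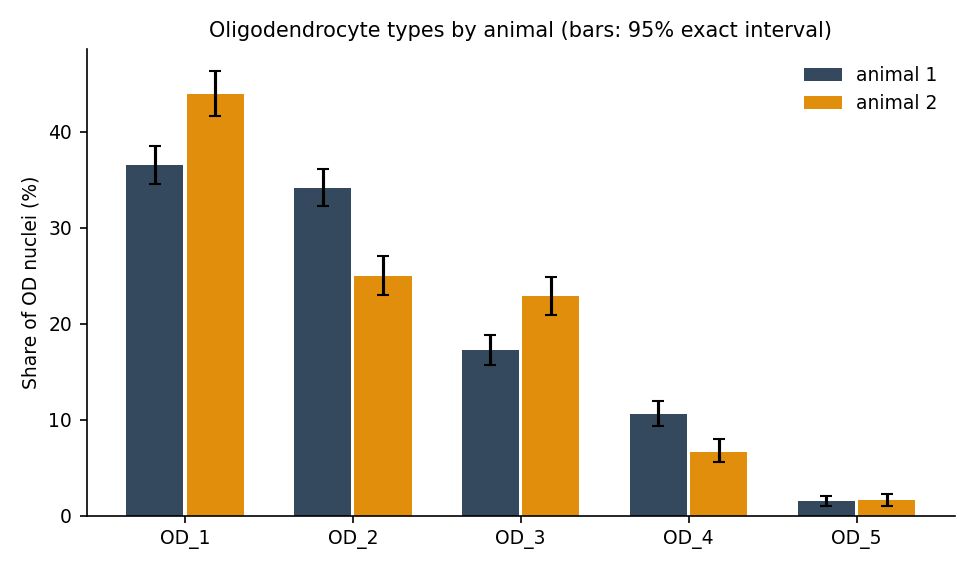
Share of each oligodendrocyte type among oligodendrocyte nuclei in percent, by animal, with exact 95% binomial intervals. OD_1 is the most frequent type in both animals (36.5 and 43.9%) and OD_5 the least (1.49 and 1.58%).

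OD_1 to OD_3 were each set against the other oligodendrocytes outside OD_5. Higher genes were counted among those at 100 CPM or more in the type and lower genes among those at 100 CPM or more in the others, by 1.5-fold in both animals. OD_1 had 9 of 1635 genes higher and 55 of 1570 lower, OD_2 had 42 of 1513 and 12 of 1612, and OD_3 had 35 of 1586 and 37 of 1596. OD_1 and OD_2 were opposite in APLP1, an amyloid precursor-like protein. It was counted at 283 and 171 CPM against 915 and 906 CPM in OD_1 and at 1215 and 1379.8 CPM against 447 and 351 CPM in OD_2. SCD and GSN moved the same way between these types, with SCD at 153 and 156 CPM against 67.9 and 52.3 CPM in OD_2. The share of nuclei with a MOG UMI at 1000 UMIs was 66.1% and 60.2% in OD_1 and 76.8% and 81.0% in OD_2, while median depths were 2065 and 2103.5 UMIs in OD_1 and 1632 and 1537 in OD_2.

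OD_3 was marked by PCYT1B at 120.2 and 120.2 CPM against 41.4 and 46.2 CPM, an enzyme of phosphatidylcholine synthesis, TMEM63A at 134 and 191 CPM against 57.9 and 84.2 CPM and ENPP6 at 235 and 364 CPM against 119 and 162 CPM in the other types. ARHGAP40 was nearly absent from it (5.01 and 8.42 CPM against 202 and 142 CPM). OD_4 had 88 of 1409 genes higher and 168 of 1609 lower. It was marked by PLCH1 at 172 and 233 CPM against 13.7 and 16.5 CPM, a phospholipase, PCSK5 at 110.5 and 242 CPM against 15.2 and 15.9 CPM, a proprotein convertase, CNTN1 at 274 and 503 CPM against 50.7 and 63.4 CPM and ARHGAP40 at 573 and 448 CPM against 94.9 and 75.7 CPM. Lower in it were FKBP5 at 17.7 and 16.5 CPM against 139 and 111 CPM, a glucocorticoid-responsive chaperone, SLC5A11 at 248 and 137 CPM against 915 and 915 CPM and DOCK5 at 28.6 and 16.5 CPM against 125 and 154 CPM. OD_3 and OD_4 thus held opposite levels of ARHGAP40.

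OD_5 was the type furthest from the rest, with 450 of 1298 genes higher and 586 of 1606 lower by 1.5-fold, and 247 and 284 by 3-fold. It held 62 nuclei, 11 and 23 from the libraries of animal 1 and 10 and 18 from those of animal 2, with median depths of 3650 and 3450.5 UMIs. Scrublet marked 7 of them, out of 12 marked among all oligodendrocytes. A UMI of the neuronal gene SYT1 was found in 8.82% and 35.7% of OD_5 nuclei at 1000 UMIs, against 16.2% and 19.1% in OD_1, 45.0% and 50.8% in precursors and 86.7% and 85.3% in glutamatergic neurons. Its FRMD4A level was 20158 and 16450.2 CPM, against 1520.4 and 1594 CPM in OD_1 and 315 and 283 CPM in OPC_1, the larger precursor type. TCF7L2 was 5400.0 and 4754 CPM against 557 and 521 CPM in OD_1 and 509.8 and 450.1 CPM in OPC_1. FYN, a kinase that starts myelination at axon contact, was 5629 and 5463 CPM, against 642 and 522 and 762 and 788 CPM. These 3 genes lay above both OD_1 and OPC_1 in both animals.

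The newly formed oligodendrocyte list, set against precursors over the whole subclass, had 5 higher, 2 lower and 3 not passing of 10 tested (edgeR). In that test 18.8% of all genes were higher and 24.9% lower. Of the 12 genes of this list with a symbol, 7 were higher in OD_5 than in every other oligodendrocyte type in both animals (ENPP6, GPR17, TNS3, FYN, NEU4, TCF7L2 and FRMD4A), where 19% of all 8935 genes at 20 CPM or more were. All but NEU4 were also above OPC_1, as 11.1% of all genes were. ENPP6 stood at 1014 and 735 CPM, against 235 and 364 CPM in OD_3 and 4.38 and 8.98 CPM in OPC_1. GPR17 rests on 3 and 2 counts in OD_5 and NEU4 on 5 and 13. BMPER was at 22.9 and 44.3 CPM (3 and 5 counts) in OD_5 against 61.4 and 212 CPM in OD_1 to OD_4 together. NFASC, the paranodal anchor, reached 6498 and 5197 CPM against 1387 and 1368 CPM in OD_1 and 2390 and 3521 CPM in OD_4, the next highest type.

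Myelin genes were present but lower in OD_5. Of 15 with a symbol, 11 were below every other oligodendrocyte type in both animals, where 23.7% of all genes were. One of the 11, CD82, was at 0 in OD_5 and at 8.62 and 5.12 CPM in OD_1 to OD_4, too low for a difference to be detectable. MBP was 8672 and 7446 CPM, against 10161 and 10115 CPM in OD_1 and 170.4 and 206 CPM in OPC_1. MOG was 564 and 452 CPM against 1122 and 1038 and 83.7 and 62.2 CPM, and a MOG UMI was found in 41.2% and 42.9% of nuclei at 1000 UMIs. The following 4 genes stood much lower. ERMN was 22.9 and 17.7 CPM against 317 and 393 CPM, PEX5L 122 and 53.1 against 10976 and 10737 CPM, ELOVL7 7.63 and 0 against 431 and 433 CPM and PLEKHH1 22.9 and 0 against 1351 and 1335 CPM.

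Precursor genes were mixed in OD_5. Of 16 with a symbol, 11 were above every other oligodendrocyte type, where 19% of all genes were. Of these, 3 (TNR, GPR17 and SOX6) were also above OPC_1, 18.8% of the 16 against 11.1% of all genes, with GPR17 at only 3 and 2 counts. SOX6 was 2570.3 and 3046 CPM against 1824 and 1639 CPM in OPC_1, and TNR 1464 and 1788 against 1284 and 1179 CPM. PDGFRA, in contrast, was 15.3 and 26.6 CPM (2 and 3 counts) against 995 and 991 CPM, and PTPRZ1 221 and 328 against 2737 and 2935 CPM. Among 1298 genes at 100 CPM or more in OD_5, 87 (6.70%) were at least 3-fold over both the other oligodendrocytes and OPC_1 in both animals, led by CPA6, a carboxypeptidase, at 1647 and 761 CPM against 3.90 and 1.28 CPM in OPC_1. Without the 7 nuclei marked by Scrublet, FRMD4A was 18685 and 15282 CPM, SOX6 2626 and 3088 CPM and ERMN 25.7 and 19.5 CPM. TOP2A, at 594 and 523 CPM in the precursor type OPC_2, was at 0 in all oligodendrocyte types.

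**Figure D4:**
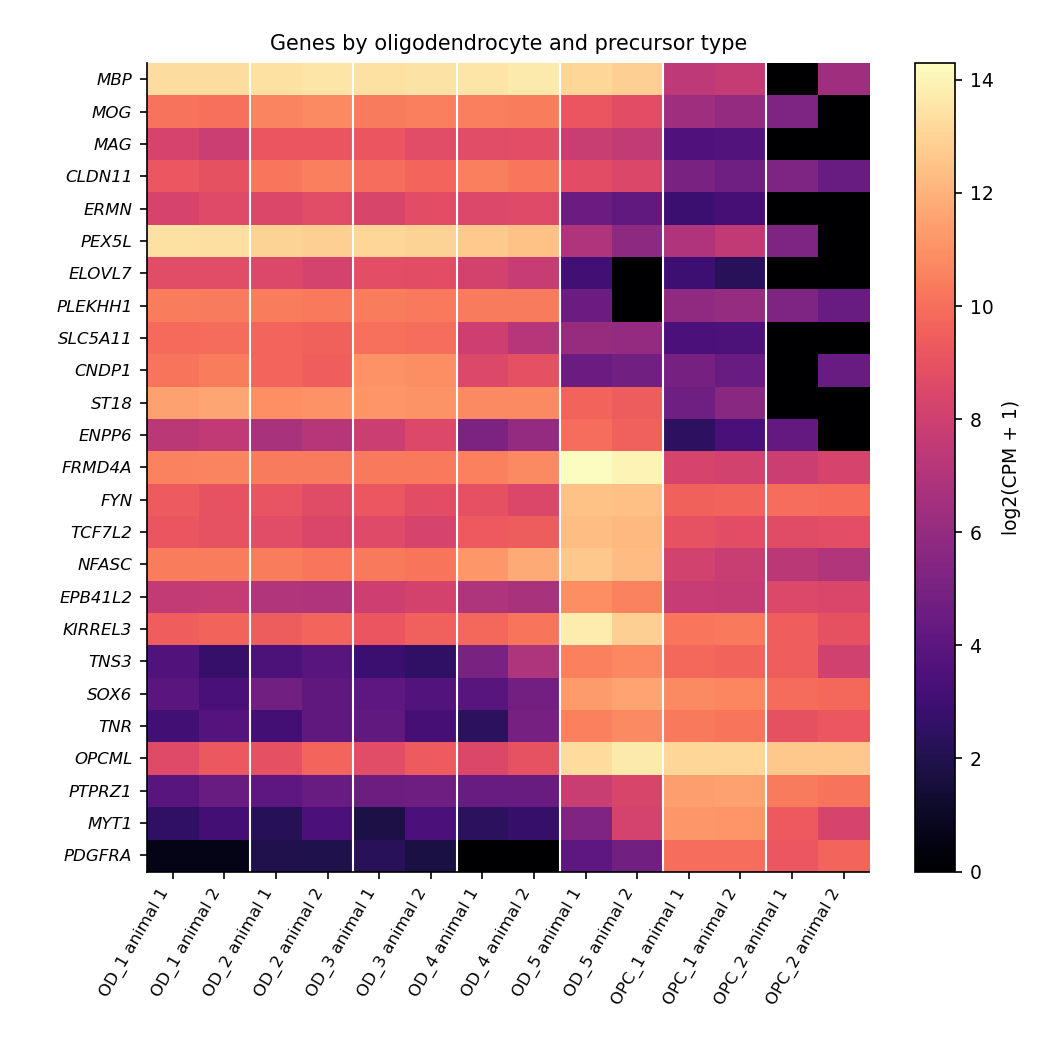
Levels of selected genes in the 5 oligodendrocyte types and the precursor types OPC_1 and OPC_2, as colour for log2(CPM + 1), with 1 column per type and animal. OD_5 stands apart from OD_1 to OD_4 in FRMD4A, FYN and TCF7L2, which are high in it, and in PEX5L, ELOVL7 and PLEKHH1, which are low.

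The 2 animals were compared within oligodendrocytes last, without a test since each stands for itself. A gene was counted when it differed by 2-fold or more and no library of the animals overlapped. No overlap alone, at any fold, held for 3298 (53.5%) of 6162 genes at 20 CPM or more. Of these 6162, 73 (1.18%) met both conditions, 46 higher in animal 2 and 27 higher in animal 1. The count was 148 (1.76%) at a minimum of 10 CPM and 32 (0.940%) at 50 CPM. Libraries of the same animal differed by 2-fold in 14 of 6133 genes (animal 1) and 18 of 6157 (animal 2). Neuronal markers were higher in the oligodendrocyte nuclei of animal 2 (455 against 327 CPM), and 26 of the 46 genes higher in animal 2, against 3 of the 27 higher in animal 1, had a higher level in neurons than in oligodendrocytes in both animals, as 34.6% of all 6162 genes compared did. The part of neuronal RNA in these differences was not tested.

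Among the genes higher in animal 1, SLC12A7, a potassium-chloride cotransporter, was counted at 49.5 and 52.3 CPM in the libraries of animal 1 and 0.543 and 0 CPM in those of animal 2, 249 counts against 1. LRRC36 was counted at 25.2 and 26.8 CPM in the libraries of animal 1 and 0.543 and 0 CPM in those of animal 2, 127 counts against 1, and it was also lower in the precursors (14.2 and 0.622 CPM) and neurons (17.1 and 0.435 CPM) of animal 2. SLC12A7 stood at 3.32 and 1.87 CPM in precursors. The retinoid receptor RXRG was counted at 30.6 and 30.4 CPM in the libraries of animal 1 and 8.14 and 3.54 CPM in those of animal 2, and the netrin receptor UNC5D at 377 and 346 CPM in the libraries of animal 1 and 114 and 106 CPM in those of animal 2, with neurons at 1167 and 1214 CPM for UNC5D. THAP10 completed this set, at 31.4 and 25.6 CPM in the libraries of animal 1 and 5.43 and 11.1 CPM in those of animal 2.

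Higher in animal 2 were KCNH8, a voltage-gated potassium channel, at 3.30 and 1.22 CPM in the libraries of animal 1 and 30.4 and 21.7 CPM in those of animal 2, and BMPER, which binds bone morphogenetic proteins, at 62.3 and 58.4 CPM in the libraries of animal 1 and 212 and 203 CPM in those of animal 2. Precursors did not share these differences, at 35.6 and 41.1 CPM for KCNH8 and 51.2 and 41.7 CPM for BMPER. The test against precursors leans on this split: for KCNH8 the log2 fold change was -1.41, -0.58 without animal 1 and -3.84 without animal 2, with its call lost under 4 alternative settings, and for BMPER 1.59, 2.40 and 0.32. RIT2, a small GTPase, was counted at 9.50 and 10.5 CPM in the libraries of animal 1 and 56.4 and 45.0 CPM in those of animal 2, with neurons at 38.2 and 37.3 CPM. The adhesion molecule CNTN3 was counted at 40.5 and 31.2 CPM in the libraries of animal 1 and 135 and 134 CPM in those of animal 2, with neurons at 576 and 676 CPM. HBE1, a globin whose reads may be split with its relatives, was counted at 8.67 and 6.49 CPM in the libraries of animal 1 and 22.8 and 30.8 CPM in those of animal 2, and it was also higher in animal 2 in precursors, astrocytes, microglia and neurons.

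**Figure D5:**
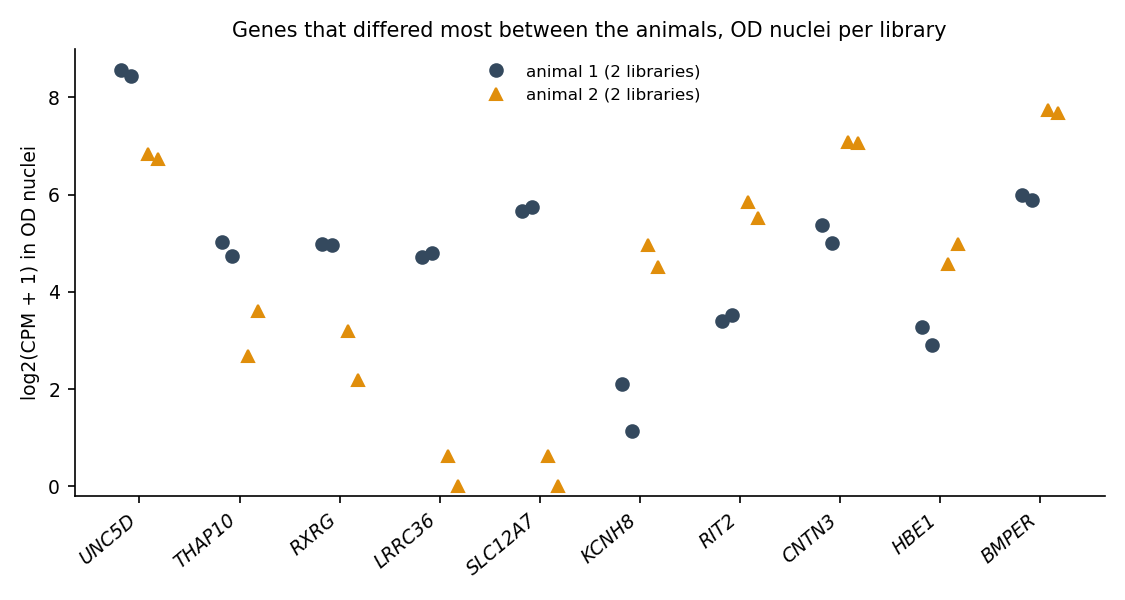
Levels of the 10 genes named for a difference between the animals, in oligodendrocytes, as log2(CPM + 1), with 1 point per library. The genes were picked by a rule that requires both libraries of an animal to lie on the same side of both libraries of the other.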

How the data were processed

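Single-nucleus RNA was measured in V1 of 2 adult opossums in 4 libraries (10x Chromium 3' chemistry). The deposited values are whole-number counts of UMIs per gene and nucleus that the authors made with Cell Ranger, introns included, on ASM229v1 with Ensembl gene ends extended. The study's methods name version 6.1.1 and the file headers 7.1.0. Subclass and type labels are the authors' own. Of 30800 genes 11576 have a symbol of their own in the files, and others were not named.

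The sums of counts over the nuclei of a subclass in an animal were compared with edgeR 4.0.16 (quasi-likelihood, TMM, Benjamini-Hochberg adjustment) in R 4.3.3, all 5 non-neuronal subclasses in 1 fit without a block, after filterByExpr, and the script was tested on simulated data. DESeq2 1.42.0 was an alternative. Named genes were the 10 largest fold changes in each direction against precursors, the 10 largest higher and 5 largest lower against the other subclasses, 5 in each direction between animals and 10 for variation, with a symbol, and any gene of the lists. The test comparisons required an adjusted p under 0.05, 20 CPM in the higher subclass and the same direction in both animals. The members and the 15 lists (339 genes, 253 with a symbol) were chosen with earlier results of these data known. The same animals gave all subclasses. Deviations from the subclass means correlated between subclasses of an animal at 0.0252 to 0.191 (0.140 for oligodendrocytes and precursors). Nuclei of other labels and non-neuronal nuclei that the authors left without a subclass (705 in doublet clusters and 276 ambiguous) were left out. The median depth of oligodendrocyte nuclei per library is given in the report, whose intervals cover counting error only. Alternatives were other scaling, filters, replicate block, doublets, nuclei numbers, labels, thinning and leaving out an animal. Some genes of the lists are not reported here.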

Additional observations from a re-analysis of the deposited data

Results flagged for a closer look

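RNA of oligodendrocytes was seen in nuclei that the comparisons do not use. In the 705 non-neuronal nuclei that the authors placed in doublet clusters, MOG was at 181 CPM in animal 1 and 156 CPM in animal 2, above labelled neurons at 7.42 and 7.95 CPM and below oligodendrocytes at 1308 and 1282 CPM. MBP in the same clusters was at 1475 and 1412 CPM, against 86.2 and 81.0 CPM in neurons and 10759 and 10970.2 CPM in oligodendrocytes. The neuronal gene SNAP25, which encodes a synaptic fusion protein, was at 972 and 989 CPM there, at median depths of 8258.5 and 8634 UMIs per nucleus. Both genes were picked because they were above the level in labelled neurons.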

How the results depend on the processing

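The count of genes that differed from precursors was 5899 and ran from 4957 (equal nuclei) to 6513 (no filter, 26085 genes tested), and against the other subclasses 4813 ran from 4599 to 6268 (Endo left out, added after seeing the data). All stayed within 1.5 times. With the replicate block the counts were 6407 and 5069, no named or listed gene lost its call, and ASAH1, GRIN1, IGF1R and SLC40A1 became called against precursors. DESeq2 ended 5 calls among the listed and named genes against precursors and equal nuclei 4. TCF7L2 lost its call under 5 settings, KCNH8 under 4 and PDE4B under 3. No direction reversed among genes called in the fit reported. A change of sign was not counted for a gene called in neither fit, or not called in the fit reported when an animal was left out. Leaving out an animal leaves no residual degrees of freedom, so counts of called genes could not be made and genes got a value with no test. Of 500 such values against precursors 169 moved by more than 1 SE of the fit. Against the other subclasses 23 moved and 7 did not. The share of non-neuronal nuclei was 49.0%, 49.7% without doublets and 43.7% with the left-out nuclei in the denominator, and 48.6 to 49.4% leaving out an animal. The ratio to precursors then ran from 2.95 to 3.11 and the median depth from 1909 to 1924 UMIs. The share of nuclei with a MOG or MAG UMI was 77.9%, 76.2 to 79.6% leaving out an animal, 55.5% thinned to 500 UMIs and 93.0% without thinning, so it follows depth. Genes that differed between animals numbered 73, 148 at a 10 CPM minimum and 32 at 50 CPM. Endo rests on 65 nuclei, and OD_5 on 62, which limits what they can show.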
